A study of Cynodon dactylon with 10 samples.

Results

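Among the assembled leaf transcripts of bermudagrass (Cynodon dactylon), a grass of lawns and pastures in warm climates, 110 of 28456 rose under heat while staying close to their control level under drought, salt and submergence. They are 0.387% of all contigs, the assembled sequences that stand for transcripts. Members were chosen from the measured values themselves. For each stress, a log2 change was taken as log2((stress mean + 1)/(control mean + 1)), with means over 2 libraries and RPKM as deposited. RPKM is read density per kilobase of contig and per fixed number of reads in the library. A contig was taken when its mean control level was under 500 RPKM, its log2 change under heat was at least 1.5, and its change under each of the other 3 stresses lay within 0.5 of 0. The rise under heat and the small changes elsewhere are therefore a description of how the contigs were picked, and no test is given for them.

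Wild-type seedlings, 3 weeks old, spent 7 days under drought, salt, submergence or heat or stayed unstressed as controls, and leaf RNA was sequenced, with 2 libraries for each of the 5 groups. Drought was given by withholding water, salt as 400 mM NaCl, submergence by covering the seedlings with water, and heat as a temperature of 42 °C. Nothing in the labels tells whether the replicates were separate plants or pools, so the spread between them may be technical. All 5 groups share the genotype and the tissue.

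Plants under heat keep proteins folded with molecular chaperones, many of which are switched on by heat shock transcription factors. Heat also alters the splicing of plant transcripts, so that a gene can give more of one transcript form and less of another. Part of the heat response is shared with other stresses, since water loss, salt and low oxygen also disturb proteins and membranes. The contigs carry assembly identifiers and are not paired with gene names in the files, so neither their functions nor the leaf markers could be looked up, and no sequence is shown. Contigs whose identifiers differ only in their final part are siblings within 1 subcomponent, which often stands for the transcript forms of a gene or for close copies of it. Reads can be divided between siblings in more than 1 way, so the single value of a contig with siblings is uncertain.

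The libraries summed to between 751923 and 795078 RPKM, and 23755 to 25948 contigs reached 1 RPKM in a library. Absolute depth is unknown. Judged by the steps between low RPKM values, depth ran from 0.792 to 1.02 times that of control replicate 1, and heat replicate 2 was the shallowest. Between the 2 libraries of a group, at most 0.429% of the contigs of at least 1 RPKM had the same value, so the replicates were not copies of each other.

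Few of the contigs that rose under heat did so under heat alone. At a control level under 500 RPKM, 2164 contigs had a log2 change of at least 1.5 under heat, and the 110 are 5.08% of these. In the other 2054, another stress moved the contig by 0.5 or more. Drought was the most frequent companion: 1639 of the 2164 contigs were up by at least 0.5 under drought, 1534 under submergence and 614 under salt. A fall of that size was seen for 42 under drought, 172 under submergence and 37 under salt. Submergence by itself kept 325 contigs out of the group, 300 of them by a rise. Drought by itself kept out 243, of which 233 by a rise, and salt by itself kept out 9. These counts use unscaled values. Over all contigs the median log2 change was 0.01 under drought, 0.05 under salt and 0.33 under submergence. No share of all contigs past 0.5 is given for each stress, so the order of the stresses is a description without a background. Seen from the other side, 7510 contigs stayed within 0.5 of the control under drought, salt and submergence. The 110 are 1.46% of them, and 80 contigs with a control level under 500 RPKM fell by at least 1.5 under heat alone.

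**Figure D1:**
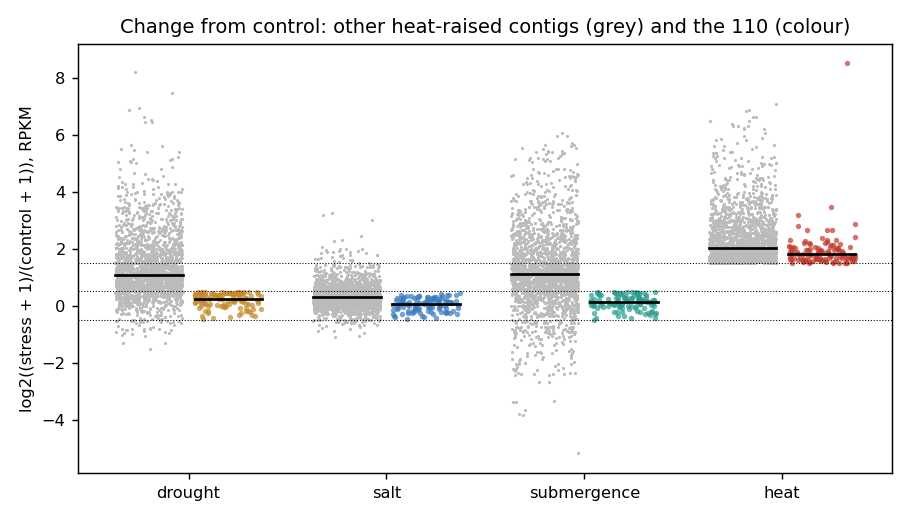
Log2 change from the control, log2((stress + 1)/(control + 1)) in RPKM, for 2054 other contigs raised by heat (grey) and for the 110 raised by heat only (colour), with medians as black bars and the limits of 0.5, -0.5 and 1.5 dotted. The grey contigs have medians of 1.09 under drought and 1.11 under submergence, and the 110 lie within the dotted limits because they were chosen so.

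The typical member was a transcript of modest abundance that roughly kept 1 level in 4 groups and stood higher in heated leaves. Over the 110 contigs, the median RPKM was 6.38 and 6.14 in the 2 control libraries, 7.12 and 7.75 under drought, 6.57 and 6.56 under salt, and 6.76 in both submergence libraries. It was 24.5 and 24.8 under heat. The 4 unheated groups lie close together, and the heat libraries stand apart from all of them. Over all 28456 contigs the median of the group means was 8.13 RPKM in the control and 9.58 under heat. In bulk leaf RNA, more RNA per cell and more cells of a type that holds the transcript cannot be told apart.

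Summed over the 110 contigs, the members took up 0.195% ± 0.00185 of the library's RPKM in unstressed leaves and 0.835% ± 0.000644 in heated leaves (SD, n = 2 each). Drought gave 0.219% ± 0.00588, salt 0.207% ± 0.00442 and submergence 0.222% ± 0.00106 (SD, n = 2 each). By themselves, the 4 members highest under heat made up 35.3% and 35.5% of the members' sum in the heat libraries, and 30.3% in each control library. The larger part of the sum thus came from the other members.

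**Figure D2:**
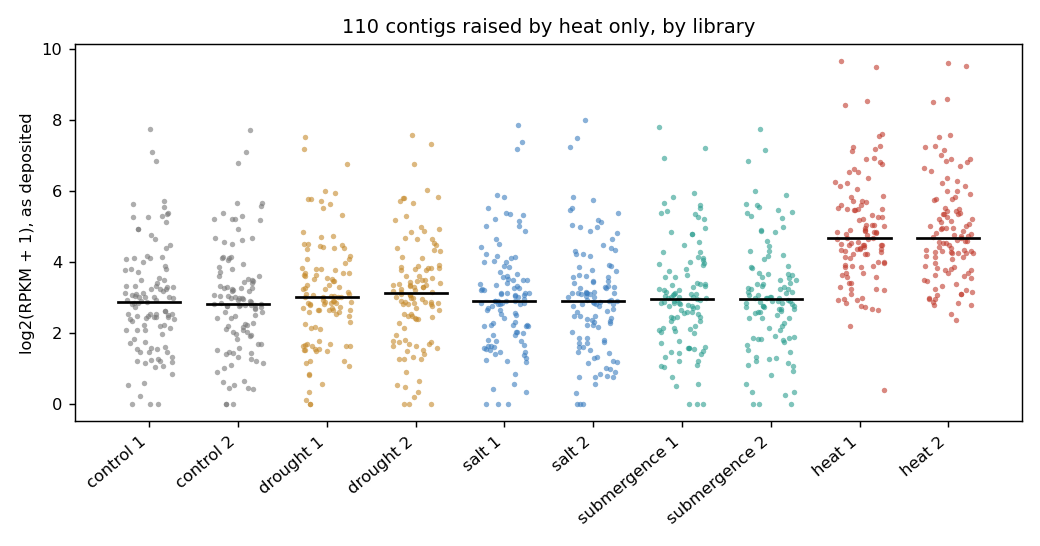
Log2(RPKM + 1) of the 110 contigs in each of the 10 libraries, 1 point per contig and library, with the median of each library as a black bar. The medians of the 8 unheated libraries lie between 6.14 and 7.75 RPKM, and those of the heat libraries at 24.5 and 24.8 RPKM.

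Most members rose by a moderate amount. The log2 change under heat had a median of 1.80, and its interquartile range was 1.65 to 2.05, against a median of 0.09 over all contigs. It lay between 1.5 and 2 in 77 members, between 2 and 2.5 in 25, between 2.5 and 3 in 5, and at 3 or more in 3. The 1 RPKM added on both sides understates the change of low contigs. Among the 68 members with at least 5 RPKM in the control, the plain ratio of heat to control ran from 2.92 to 7.07, with a median of 3.63. The changes of many members sit close to the limit of the rule, with 22 of the 110 between 1.5 and 1.6.

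Control levels of the members ran from 0 to 212 RPKM and were mostly low. Under 1 RPKM in the control were 9 members, with a median of 7.91 RPKM under heat. A further 33 had 1 to 5 RPKM in the control and a median of 12.9 RPKM under heat. The largest class, 50 members, had 5 to 20 RPKM in the control and a median of 30.9 RPKM under heat. Another 15 had 20 to 100 RPKM in the control and a median of 119 RPKM under heat, and only 3 had more. As a share of the heat-raised contigs of the same control level, the members were 3.11% under 1 RPKM, 4.02% from 1 to 5 RPKM, 6.32% from 5 to 20 RPKM and 6.28% from 20 to 100 RPKM. Above 100 RPKM they were 3 of 25. In heated leaves, 28 members reached 50 RPKM and 14 reached 100 RPKM.

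**Figure D3:**
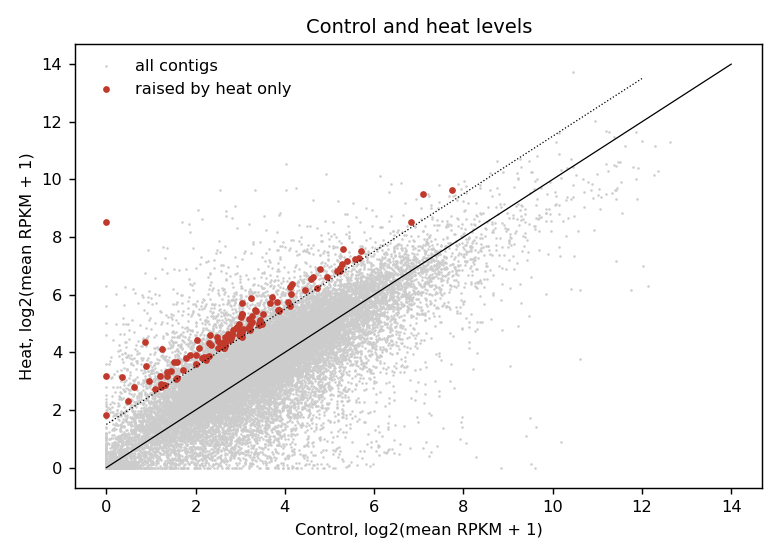
Mean control level against mean heat level of every contig, both as log2(RPKM + 1), with all 28456 contigs in grey and the 110 raised by heat only in red. The solid line marks equal levels and the dotted line a log2 change of 1.5. The red points lie on or above the dotted line by choice, and most have 1 to 20 RPKM in the control.

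One member stands apart from all the others. The contig comp52227_c0_seq2 was listed at 0 in both control libraries, both drought libraries, both submergence libraries and salt replicate 1, and had 0.69 RPKM in salt replicate 2. Under heat it had 342 and 383 RPKM, a mean of 363 ± 28.6 (SD, n = 2). It ranked 228th and 194th among all contigs of the heat libraries, and it was the fourth most abundant member in heated leaves. No fold change is given, since the control is listed at 0.

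Its siblings were already abundant in unstressed leaves. The subcomponent has 5 contigs, and the most abundant sibling had 1429 and 1384 RPKM in the control, 1435 and 1374 under drought, 2350 and 2325 under salt, 3504 and 3445 under submergence, and 13352 and 13553 under heat. In both heat libraries this sibling was the most abundant contig of the whole table, while it ranked 53rd and 55th in the control. It is not a member, because its control level is above 500 RPKM and it was also higher under salt and submergence. The subcomponent as a whole had 2743 ± 49.0 RPKM in unstressed leaves and 15889 ± 244 in heated leaves, with 2462 ± 108 under drought, 4185 ± 112 under salt and 4859 ± 43.4 under submergence (SD, n = 2 each). The member made up 2.18% and 2.38% of the summed RPKM under heat, and the abundant sibling 85.0% and 84.4%. Whether the reads given to the member came from this sibling was not tested.

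Most other members with the largest changes were scarce outside heat. Of the 10 largest log2 changes, 7 belonged to contigs under 5 RPKM in the control, and 6 to contigs with siblings. The ninth in rank is an exception, with a mean of 136 RPKM in the control, and is described with the abundant members. The member second in rank had 0.80 and 0.87 RPKM in the control and 20.6 and 18.3 under heat, and lay between 0.58 and 1.80 RPKM in the other 6 libraries. The third was listed at 0 in all 8 unheated libraries and had 7.03 and 8.98 RPKM under heat. The fourth had 1.30 and 1.41 RPKM in the control, 17.6 and 14.75 under heat, and at most 2.18 elsewhere. In all 3 the 2 heat libraries lie close together and far above the rest. Sixth and seventh in rank were contigs of somewhat higher level. The sixth had 7.11 and 7.30 RPKM in the control, 7.08 and 10.7 under drought, 7.83 and 6.32 under salt, 7.57 and 9.02 under submergence, and 47.6 and 54.25 under heat. The seventh had 8.47 and 8.44 RPKM in the control and 57.1 and 59.6 under heat, but its drought libraries, at 11.5 and 13.2, and its submergence libraries, at 12.5 and 11.4, were also above the control. It passed the limit for drought narrowly, with a log2 change of 0.49.

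The most abundant members were siblings of each other. The contig comp55982_c0_seq1 had 213 and 211 RPKM in the control, 183 and 189 under drought, 233 and 253 under salt, 224 and 212 under submergence, and 808 and 782 under heat. Its mean was 212 ± 1.17 RPKM in the control and 795 ± 18.5 under heat (SD, n = 2 each), a ratio of 3.75. Drought lies slightly under the control and salt slightly over it, and only the heat libraries are far away. In the scaled limma fit described below, this contig was called lower than the control under drought and under submergence. The log2 changes were -0.27 (adjusted p 0.0009) and -0.23 (adjusted p 0.0016). Under salt the change was 0.12 and was not called. A second member of the same subcomponent had 136 RPKM in both control libraries, 145 and 158 under drought, 167 and 179 under salt, 148 and 143 under submergence, and 723 and 730 under heat. The last of the 3 had 115 and 111 RPKM in the control, 109 and 108 under drought, 143 and 150 under salt, 121 and 115 under submergence, and 370 and 363 under heat. These 3 were also the members with the highest control levels, at 212, 136 and 113 RPKM.

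The make-up of this subcomponent of 8 contigs shifted under heat, although its total went from 708 ± 11.0 to 2738 ± 13.5 RPKM (SD, n = 2 each). The first of the 3 members kept a similar share, 29.7% and 30.1% of the summed RPKM in the control and 29.4% and 28.6% under heat. The second went from 18.9% and 19.4% to 26.3% and 26.8%, and the third from 16.1% and 15.8% to 13.5% and 13.3%. A sibling that is no member had 35.5 and 32.6 RPKM in the control and 23.5 and 20.3 under heat. Its share went from 4.96% and 4.66% to 0.854% and 0.742%. The level of this sibling was lower still under drought, at 14.6 and 14.1 RPKM, and under submergence, at 20.1 and 16.5 RPKM. Under salt it was higher than in the control, at 44.9 and 39.9 RPKM. The second member also held a larger share under drought than in the control, so shifts in make-up were not limited to heat. The forms of 1 subcomponent thus differed in direction, with the 3 members among those that rose. Another sibling was listed at 0 in every library.

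**Figure D4:**
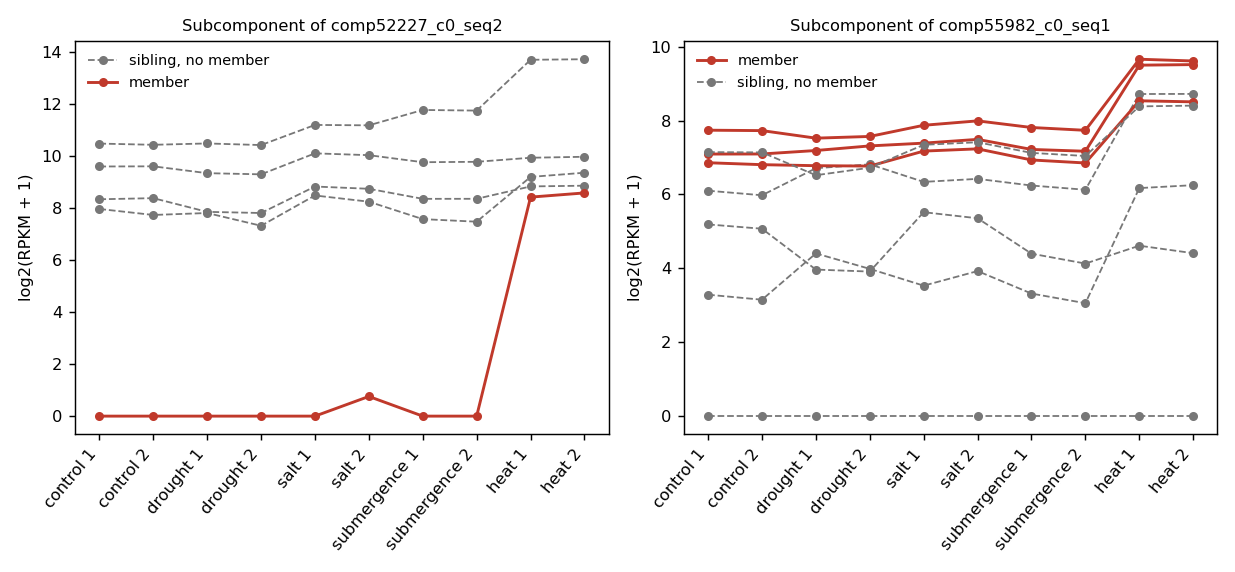
Log2(RPKM + 1) in each library for the contigs of 2 subcomponents, members in red and other siblings dashed in grey, with lines that only join the values of 1 contig. On the left, comp52227_c0_seq2 is at or near 0 until the heat libraries, below a sibling at 13352 and 13553 RPKM. On the right, the 3 members rise under heat with most of their siblings.

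Some further members of high level were also siblings of each other, while others, such as those at 152 and 144 RPKM under heat, had no siblings. A pair of siblings had 38.5 and 38.2 RPKM in the control against 195 and 191 under heat for the first, and 21.3 and 24.6 against 92.1 and 93.0 for the second. In a subcomponent made only of 3 members, control levels of 51.9 and 50.1, 37.4 and 36.5, and 24.3 and 22.9 RPKM stood against heat levels of 186 and 182, 122 and 119, and 97.6 and 98.7 RPKM. In both sets each contig was far higher in both heat libraries than in any other library. The 110 members fell into 99 subcomponents, of which 90 held 1 member, 7 held 2 and 2 held 3. In the 9 subcomponents with several members, the members' log2 changes under heat differed by 0.02 to 0.72, with a median of 0.32. Siblings share sequence and are not independent, so the number of separate units is nearer to 99 than to 110.

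Heat libraries were separated from all others in nearly every member. In 109 of the 110 the lower heat library was above the highest of the 8 unheated libraries. Over all contigs tested, 22.9% have that order, and the members were chosen for a high level under heat. The gap between the lower heat library and the highest other library, as a log2 difference of RPKM + 1, had a median of 1.39 and was at least 1 in 97 members. The 2 heat libraries differed from each other by a median of 0.07 on the same scale, and the 2 control libraries by 0.09. Replicate 1 was the higher heat library in 55 members and replicate 2 in the other 55.

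One member rests on a single library. It had 0.32 RPKM in heat replicate 1 and 4.82 in heat replicate 2, and was listed at 0 elsewhere except for 0.76 in drought replicate 1. It was the exception to the separation above and was not tested, because it did not reach 1 RPKM in 2 libraries. Of the 109 members that were tested, 4 passed that filter through the heat libraries alone.

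The linear model across all contigs called 109 of the 109 tested members higher under heat than in the control, at a Benjamini-Hochberg adjusted p under 0.05 in limma. The background is 35.4% of all contigs tested. The rule used this contrast, so nothing is read from the count. The same 109 were called higher under heat than under drought, where 33.1% of all contigs were, than under salt, where 35.5% were, and than under submergence, where 35.4% were. All 4 calls together were made for 14.9% of all contigs. These contrasts too follow from the rule, which places the other stresses near the control. In this fit the libraries are scaled, which lowers the log2 change of abundant contigs under heat by 0.24 and that of low contigs by less, and the members' median was 1.59 against 0.00 over all contigs.

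Within the limit of 0.5 the members were not equally near to the control under the other 3 stresses. Their log2 change as deposited was above 0 under drought in 85 members and below 0 in 22, with a median of 0.24, where all contigs had a median of 0.01. Under submergence it was above 0 in 77 and below 0 in 30, with a median of 0.14, and all contigs had a median of 0.33. Under salt it was above 0 in 64 and below 0 in 44, with a median of 0.06 beside 0.05 over all contigs. After heat, drought was the group with the highest mean in 57 members, submergence in 32, salt in 17 and the control in 4. All 3 changes were above 0 in 40 members and below 0 in 3. The changes under heat and under the other 3 stresses share the same control mean. Choosing a large rise under heat favours a low control reading, so a lean above 0 is partly built in. These counts of members are given without a share over all contigs and are a description. Among the 7510 contigs held within the same limits, the medians were 0.00 under drought, 0.13 under submergence and 0.02 under salt. In these unscaled values the members' median was above that of the 7510 under drought and close to it under submergence.

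Many members were nevertheless called in these comparisons. Limma called 40 of 109 members between drought and control, 28 higher and 12 lower, where 60.9% of all contigs were called, 30.7% higher and 30.2% lower. It called 18 between salt and control, 8 higher and 10 lower, with a background of 25.9%, split into 13.7% and 12.2%. Between submergence and control it called 34, of which 7 were higher and 27 lower, with a background of 75.6%, split into 41.8% and 33.8%. A share of calls under the background is built in by the limit of 0.5, and it is not a result about the members. Members are thus contigs with small changes outside heat, which is not the same as no change.

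For submergence and salt, the balance between members called higher and lower depended on the scaling. Without it, 29 members were called higher and 11 lower under submergence, where 53.5% and 26.2% of all contigs were. For salt the unscaled split was 17 higher and 5 lower, beside 19.4% and 7.71% of all contigs, and for drought 36 higher and 9 lower, beside 34.8% and 26.4%. Scaling lowered the log2 change of abundant contigs by 0.27 under submergence, 0.08 under salt and 0.08 under drought, and that of low contigs by less. For submergence the balance of the members' calls turned over. For salt it became nearly even, at 8 higher and 10 lower with trimmed mean scaling, beside 13.7% and 12.2% of all contigs. Under drought more members were called higher than lower with each of the 4 scalings. The smallest split was 20 against 13 with upper-quartile scaling, where 26.6% of all contigs were called higher and 34.1% lower. The rule used the drought values, so these counts are a description.

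Members often belonged to subcomponents with several contigs. Siblings were present for 68 of the 110, or 61.8%, against 49.2% of all contigs, 52.2% of the other 2054 heat-raised contigs and 47.6% of the 7510 contigs that stayed near the control under the other 3 stresses. These shares are descriptions without a test. The remaining 42 members were the only contig of their subcomponent, and the largest subcomponent with a member had 11 contigs.

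The other siblings of the members, 120 contigs in 51 subcomponents, were not chosen by the rule, except that those meeting it are left out. Their log2 change under heat had a median of 0.69, with an interquartile range of -0.10 to 1.51, against a median of 0.11 over all contigs with siblings. It was 1 or more in 54 of the 120, 45.0%, and -1 or less in 13, 10.8%. Over all 13989 contigs with siblings these shares were 15.9% and 13.7%. In the scaled fit, 43 of 119 siblings tested were called higher at least 2-fold, 36.1%, where 12.1% of all contigs with siblings were, and 16 were called lower, 13.4%, where 17.7% were. Siblings share sequence with the members and reads can be divided between them, so the siblings' changes are not separate evidence. A log2 change of 1.5 or more was seen for 31 siblings, which were kept out by another stress or by their control level.

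Summed per subcomponent, the other siblings had a log2 change of 1 or more in 31 of the 51 and of -1 or less in 1, with a median log2 change of 1.185. The members held a median of 30.1% of the summed RPKM of these subcomponents in the control and 40.6% under heat, and their share was higher under heat in 40 of 51. A larger share is partly built in, because members were picked for their rise. Taking all contigs of a subcomponent together, the log2 change of the total was 1.5 or more in 30 of 57, 1 to 1.5 in 15, 0.5 to 1 in 7 and less in 5. In 12 of the 57 the total itself met the rule. For the other 45, the total changed by under 1.5 under heat, moved by 0.5 or more under another stress, or had a control level of 500 RPKM or more.

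**Figure D5:**
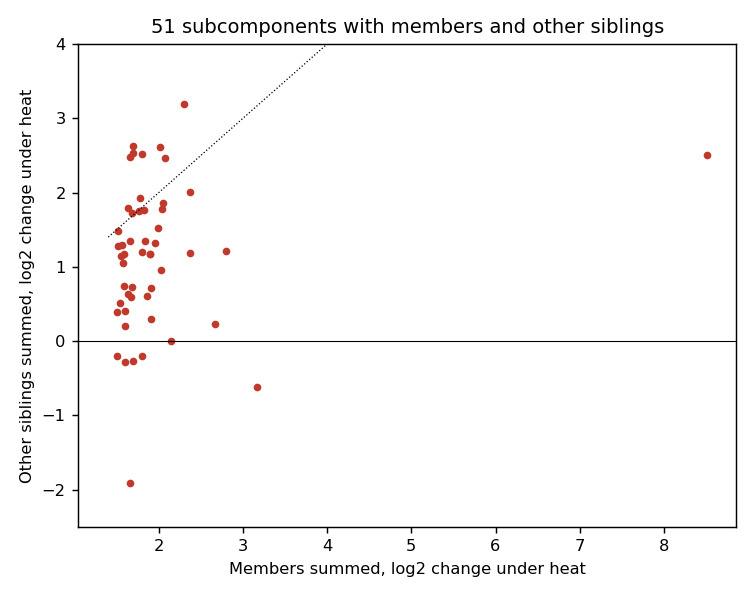
Log2 change under heat of the members of a subcomponent, summed, on the x axis, and of its other siblings, summed, on the y axis, for 51 subcomponents. The dotted line marks equal changes and the solid line no change. The siblings' change was 1 or more in 31 of them and below 0 in 6.

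In a few subcomponents a member rose while the total hardly moved. A subcomponent of 2 contigs had a member at 3.30 and 3.82 RPKM in the control and 13.9 and 12.8 under heat, and a sibling at 11.0 and 11.2 in the control and 1.95 and 2.47 under heat. The total was 14.6 RPKM in the control and 15.5 under heat, and the member went from 24.3% to 85.8% of it. The order of the 2 contigs was thus reversed in heated leaves. Whether this is a switch between transcript forms was not tested. Under submergence the same sibling was also low, at 1.76 and 1.41 RPKM, while the member stayed at 3.13 and 2.67 RPKM, so the fall of the sibling came without a rise of the member there.

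The siblings with the lowest change under heat are described next. The contig comp54470_c0_seq26 had 36.35 and 39.97 RPKM in the control, 11.7 and 11.9 under drought, 27.6 and 28.7 under salt, 40.7 and 47.3 under submergence, and 2.44 and 2.36 under heat. Its subcomponent of 11 contigs holds the member described above as listed at 0 in the 8 unheated libraries. The total was 409 ± 0.226 RPKM in the control, 148 ± 1.10 under drought and 275 ± 3.13 under heat (SD, n = 2 each). The member thus appeared in heated leaves at 2.57% and 3.24% of a total that was lower than in the control.

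The contig comp55572_c3_seq21 had 16.1 and 10.8 RPKM in the control, 0.23 and 0 under drought, 10.4 and 9.31 under salt, 3.93 and 6.16 under submergence, and was listed at 0 in both heat libraries. The member of its subcomponent had 8.78 and 8.34 RPKM in the control, 7.97 and 9 under drought, 10.3 and 11.2 under salt, 7.20 and 6.91 under submergence, and 31.9 and 32.8 under heat. The total of the 6 contigs was 91.7 ± 1.04 RPKM in the control and 104 ± 2.11 under heat, against 59.0 ± 2.27 under drought (SD, n = 2 each). The falling contig was near 0 under drought as well, where the member stayed at its control level. Both were picked for their low value under heat, so these values are a description.

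Elsewhere the sibling moved further than the member. In a subcomponent of 2 contigs the member had 8.49 and 6 RPKM in the control and 43.0 and 36.0 under heat. Its sibling had 52.3 and 57.96 RPKM in the control, 103 and 111 under drought, 78.5 and 76.75 under salt, 35.3 and 37.2 under submergence, and 497 and 524 under heat. The member, the scarcer form, met the rule, and the sibling did not, since its log2 change was 0.95 under drought and -0.59 under submergence. Here the rule separated 2 forms that both rose in heated leaves.

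The limits of the rule cut through a continuous range. The members nearest to the heat limit had log2 changes of 1.503, 1.504 and 1.506, and the nearest contigs left out had 1.4985, 1.496 and 1.492. For drought the last members had 0.498, 0.494 and 0.491, and the first contigs outside 0.503, 0.507 and 0.508. For submergence the absolute values were 0.498, 0.488 and 0.486 inside and 0.506, 0.508 and 0.510 outside. For salt they were 0.481, 0.438 and 0.431 inside and 0.546, 0.561 and 0.566 outside. No heat-raised contig near the control in the other stresses was excluded by the limit of 500 RPKM. For heat, drought and submergence the values on both sides of the limit are nearly the same, while for salt they lie further apart. Met by replicate 1 of every group alone and by replicate 2 alone, the rule took 109 and 119 contigs, and 54 of the 110 members were in both.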

How the data were processed

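Leaf RNA of 10 libraries was used, grouped by their titles. RNA came from a Qiagen RNeasy extraction and went into standard Illumina libraries, per the labels' protocols. DESeq 1.18.0, HTSeq 0.6.1, TopHat2 2.0.12 and Bowtie2 2.2.3 appear in the submitters' processing notes without roles. The sources used here do not tell how the contigs were assembled. The authors deposited RPKM values with 2 decimals, per the file headers, although the file is named for read counts.

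The rule was applied to deposited RPKM. For the fit, a trimmed mean of log ratios set the scale of each library (30% of ratios and 5% of levels cut from both tails). A contig needed 1 RPKM or more in 2 libraries, which kept 26884 of 28456. Limma 3.58.1 (R 4.3.3) then modelled log2(RPKM + 1) by group alone, with a variance trend and 5 residual degrees of freedom. Fold changes on that scale understate the change of low contigs. Adjusted p-values are Benjamini-Hochberg values over all contigs tested, called under 0.05. The fit was also run on simulated data, with known changes in far fewer contigs than were called here. No result rests on that run. Python 3.11.15, numpy 2.4.6, pandas 2.3.3, scipy 1.17.1 and matplotlib 3.10.9 did the rest. Contigs were named by a rule: the member with the largest change under heat, the member with the highest heat level, and the 2 falling siblings of at least 5 control RPKM with the lowest change. The sixth, seventh and other unnamed contigs follow ranks or were chosen after their values were seen. Members and rules were chosen with earlier results of these data known. Alternatives covered the rule's limits, pseudocount, scaling, filter, threshold, libraries and a replicate block. Counting 1 contig per subcomponent and a heat level of at least 5 RPKM were added after seeing the data.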

Additional observations from a re-analysis of the deposited data

How the results depend on the processing

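The 110 members came to 72 with 5 RPKM added in place of 1 (40 of them shared), 495 at a heat limit of 1, 33 at a heat limit of 2, 30 with the other stresses within 0.3 and 237 within 0.7. With trimmed mean scaling the rule took 96 contigs, of which 59 were among the 110, so the scaling decides much of the membership. Median-ratio scaling gave 98 with 56 shared, and 0.1 RPKM in place of 1 gave 127 with 74 shared. Leaving out 1 library gave 104 to 119 members, and 55 were taken whichever library was left out.

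At an adjusted p under 0.01, limma called 7 members for salt and 18 for submergence, where 14.6% and 66.4% of all contigs were called. Leaving out 1 library, the calls were 32 to 39 for drought, 10 to 16 for salt and 23 to 30 for submergence against the control, beside 54.0% to 55.0%, 17.2% to 18.3% and 68.0% to 70.6% of all contigs. Heat was called higher in 105 to 109 members against the control, 104 to 108 against drought, 105 to 109 against salt and 105 to 109 against submergence, beside 32.4% to 32.9%, 29.4% to 30.5%, 32.4% to 32.9% and 32.5% to 35.0% of all contigs. Of 108 alternative counts, 100 stayed within 1.5 times. This compares the counts and not which contigs are counted, and the heat calls among them follow from the rule. The named contigs, which were picked for their values under heat, kept direction and call in all 46 alternative values. These hold none for comp52227_c0_seq2 without heat replicate 1 or 2, since it then failed the filter of 1 RPKM in 2 libraries and was not tested. The cause of the changes was not tested.

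Replicates of the same number deviated together little, if at all: correlations between groups ran from -0.052 to 0.121. With the replicate number as a block, limma called 109 members higher under heat in each of the 4 comparisons, where 35.4% of all contigs were against the control, 32.8% against drought, and 35.3% against salt and against submergence. It called 40 for drought, 19 for salt and 35 for submergence against the control, with backgrounds of 60.5%, 24.7% and 75.2%. The depth is unknown, so no interval is given for low values.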

Other observations

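When the contigs of each subcomponent were summed before the rule was applied, 61 of 19459 subcomponents rose under heat only. Of these, 42 consisted of 1 contig and 19 of several. The 42 are the members without siblings described above, since a sum over 1 contig is that contig. Among the 19, 12 hold a contig that met the rule by itself and 7 hold none, so in those 7 the sum stayed near the control outside heat while no single contig met all limits.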
